A study of Homo sapiens with 24 samples.

Results

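The 42 genes described here encode the machinery that copies DNA and the regulators that switch it on: factors that license replication origins, the replicative helicase and its activators, DNA polymerases and primase, the sliding clamp with its loader and the enzymes of lagging-strand synthesis, enzymes of deoxynucleotide supply, factors that rebuild chromatin behind the fork, and regulators of the G1/S transition. They were taken as a fixed list of symbols, and all 42 were found under the same Ensembl identifier in each of the 3 deposited count tables, which list 58735, 78932 and 61541 genes for SK-N-SH siRNA, SK-N-AS CRISPRi and SK-N-SH CRISPRi. The study measured RNA by sequencing after knockdown of FAM167A (DIORA1) in SK-N-SH and SK-N-AS, which are human neuroblastoma lines, and its title concerns binding of the protein to MRCK kinases and cell motility. In SK-N-SH, 5 libraries of cells given an siRNA pool against FAM167A were set against 5 of cells given NTC siRNA. In the CRISPRi experiments a Cas9 fused to the KRAB repressor domain was used with the guide sgDIORA1 or with the control guide sgGal4, in 4 knockdown against 4 control libraries of SK-N-AS and in 3 against 3 of SK-N-SH. The label NTC covers both kinds of control. The cells of all CRISPRi groups, controls included, are described as carrying the same repressor system. No source used here says whether a group is a single clone or a pool, how long cells were kept after knockdown, or whether libraries of a group came from separate cultures.

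A replication origin is licensed in G1, when the origin recognition complex, CDC6 and CDT1 load the MCM2-7 ring onto DNA. The ring becomes an active helicase in S phase when CDC45 and the GINS complex join it, and polymerases, clamp and clamp loader then assemble around it. Transcription of many of these genes is held back in G1 by RB-family proteins bound to E2F factors and is switched on before S phase, once cyclin-dependent kinases release E2F; the mRNAs are therefore widely used as a measure of how much of a culture is cycling. In bulk RNA, fewer cells in S phase and less of these mRNAs per cell cannot be told apart.

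Promoter sequence was read for the members because E2F sites are a known shared feature of replication genes. Many of the 42 are known for control by E2F, so a high share with such sites follows in large part from the choice of genes. The shares below are a description. RefSeq promoters (GRCh38.p14, 250 bases before to 50 after the annotated start) were in the table used for 38 of the 42 members; MCM4, MCM5, GINS4 and CCNE2 had none there. A match to an E2F-type site was any of the runs TTCGCGC (the first form), TTGGCGC (the second), TTCCCGC (the third) and TTGCCGC (the fourth), searched on both strands. Such letters were found in 29 of the 38 promoters (76.3%), against 3564 of 27305 promoters in the table (13.1%) and 3 of 17 promoters of a list of G2 and mitosis genes (17.6%). The CCAAT box, searched as CCAAT on both strands, was in 55.3% of the members' promoters, 88.2% of the G2 and mitosis promoters and 35.7% of all promoters. The members' promoters also had a higher median GC content (66.7%) than all promoters (58.3%), and the part of base composition in the share with these letters was not tested. The windows below are shown for 8 genes given by library further on, in the direction of transcription; capitals mark 1 match per gene, the one nearest the annotated start, and the position is that of its first base with the start site counted as 0. A match is a run of letters and not evidence of a bound factor.
E2F2 (chr1:23531256-23531285, minus strand, position -41): cggcacgacgtTTGGCGCtaaaaaaaaaaa
MCM3 (chr6:52284727-52284756, minus strand, position -3): gttcggaagttTTCGCGCcggggtggagtc
MCM7 (chr7:100101384-100101413, minus strand, position -5): ggcgacgtttcGCGCCAAtttcggttggcc
CHAF1A (chr19:4402622-4402651, plus strand, position -7): ggtcgccgcggTTCCCGCcaaatacgagcg
TYMS (chr18:657603-657632, plus strand, position -39): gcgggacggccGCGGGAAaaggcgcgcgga
MCM2 (chr3:127598403-127598432, plus strand, position 3): gtgaaccacttTTCGCGCgaaacctggttg
RRM1 (chr11:4094451-4094480, plus strand, position -223): caagaaaaacgTTCCCGCcggttaggtttt
E2F1 (chr20:33686386-33686415, minus strand, position -19): gcaaaaaggatTTGGCGCgtaaaagtggcc
In 6 of the 8 genes the match shown lay within 41 bases of the annotated start on the upstream side; in MCM2 it lay just downstream of it, and in RRM1 it lay far upstream. The promoters of MCM3 and MCM7 hold 3 matches, those of CHAF1A, MCM2 and E2F1 hold 2, and those of E2F2, TYMS and RRM1 hold 1. The marked matches of MCM7 and TYMS are on the opposite strand, so that their capitals read as the reverse complement of the letters searched. The windows of MCM7 and MCM2 each also hold a match that overlaps the capitals on the other strand from the marked match.

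Libraries of the siRNA experiment held 71464698 to 90255175 reads assigned to genes, those of SK-N-AS CRISPRi 29985858 to 104455853 and those of SK-N-SH CRISPRi 11690515 to 21628076. FAM167A itself was 57.7 to 71.4 CPM (the gene's share of a library's reads, scaled to a common library size with TMM factors) in siRNA knockdown libraries and 168 to 201 in their controls. It was 9.17 to 11 CPM in SK-N-AS CRISPRi knockdown libraries, against 90.8 to 98.7 in controls, and 2.62 to 3.79 CPM in SK-N-SH CRISPRi knockdown libraries, against 230 to 255 in controls. In the siRNA experiment, knockdown libraries 3 and 4 lay nearer to each other than to the 3 other knockdown libraries, and control library 5 stood apart from the other controls; results that change without them are given so. No pair of libraries of a group agreed within sampling noise. Of cell identity markers, TH had a mean at or under 0.718 CPM in every group and ESRP1, HBA1 and HBB were at 0, while PTPRC, a leukocyte gene, had 451 CPM in SK-N-AS knockdown libraries and 542 CPM in SK-N-AS controls, with CD3E at 0. TH and ESRP1 do not stand for their lists. The 15 adrenergic markers summed to a mean of 5202 CPM in siRNA knockdown libraries and 4842 CPM in their controls. The mean sums of the 7 epithelial markers were 37.2 and 34.3 CPM with siRNA, knockdown first. They were 144 and 146 CPM in SK-N-AS and 164 and 86 CPM in SK-N-SH CRISPRi.

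Most of the replication genes fell in both CRISPRi experiments and not in the siRNA experiment. A gene was called changed at a Benjamini-Hochberg adjusted p under 0.05 in edgeR's quasi-likelihood test, adjusted over all genes tested. All 42 members passed the filter on low counts in every experiment. In SK-N-AS CRISPRi 32 members fell and 0 rose; of the 19277 genes tested there, 30.6% were called, 15.5% as falls and 15.2% as rises. In SK-N-SH CRISPRi 40 fell and 0 rose; of the 15391 genes tested 55.8% were called, 28% as falls and 27.7% as rises. With siRNA 2 members rose (MCM10 and CHAF1A) and 0 fell, where 9.53% of 21018 genes were called, 2.55% as rises and 6.98% as falls. An unadjusted edgeR p under 0.05 was seen with siRNA for 11 of the 42 members and for 4567 of the 21018 genes. By DESeq2 4 members rose and 1, RRM2, fell, where 3.87% of all genes rose and 7.76% fell. The 32 members that fell in SK-N-AS all fell in SK-N-SH too; 10.3% of the 14236 genes tested in both fell in both.

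The median log2 fold change of the 42, knockdown over control, was 0.05 with siRNA, -0.17 in SK-N-AS CRISPRi and -0.44 in SK-N-SH CRISPRi, while over all genes tested it was 0.009, -0.002 and -0.007. Summed over the 42, the RNA came to 3495, 3562, 3562, 3596 and 3620 CPM in siRNA knockdown libraries, against 3393, 3489, 3491, 3524 and 3536 CPM in their controls. The siRNA ranges overlapped, and the ratio of group means was 1.02. In SK-N-AS CRISPRi the sum was 3217, 3226, 3232 and 3268 CPM in knockdown libraries and 3593, 3598, 3600 and 3625 CPM in controls, a ratio of 0.898. In SK-N-SH CRISPRi it was 3133, 3158 and 3200 CPM in knockdown libraries and 4309, 4342 and 4357 CPM in controls, a ratio of 0.73. The knockdown and control sums did not overlap in either CRISPRi experiment, the knockdown sums being lower. The same held for 33 single members in SK-N-AS, where 14.6% of all genes tested did so, and for 39 in SK-N-SH, where 30.5% did. The 33 members were separated this way in both, a count for which the share over all genes was not computed. With siRNA 0 members were separated downward (6.08% of genes) and 5 upward (2.65%); upward separation was seen for 0 members in SK-N-AS (14.4% of genes) and 0 in SK-N-SH CRISPRi (30.2%). In SK-N-SH CRISPRi E2F2 alone was lower by 2-fold or more. Calls of at least 2-fold in either direction made up 0.699% of all genes tested with siRNA, 2.99% in SK-N-AS and 10.8% in SK-N-SH CRISPRi.

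**Figure D1:**
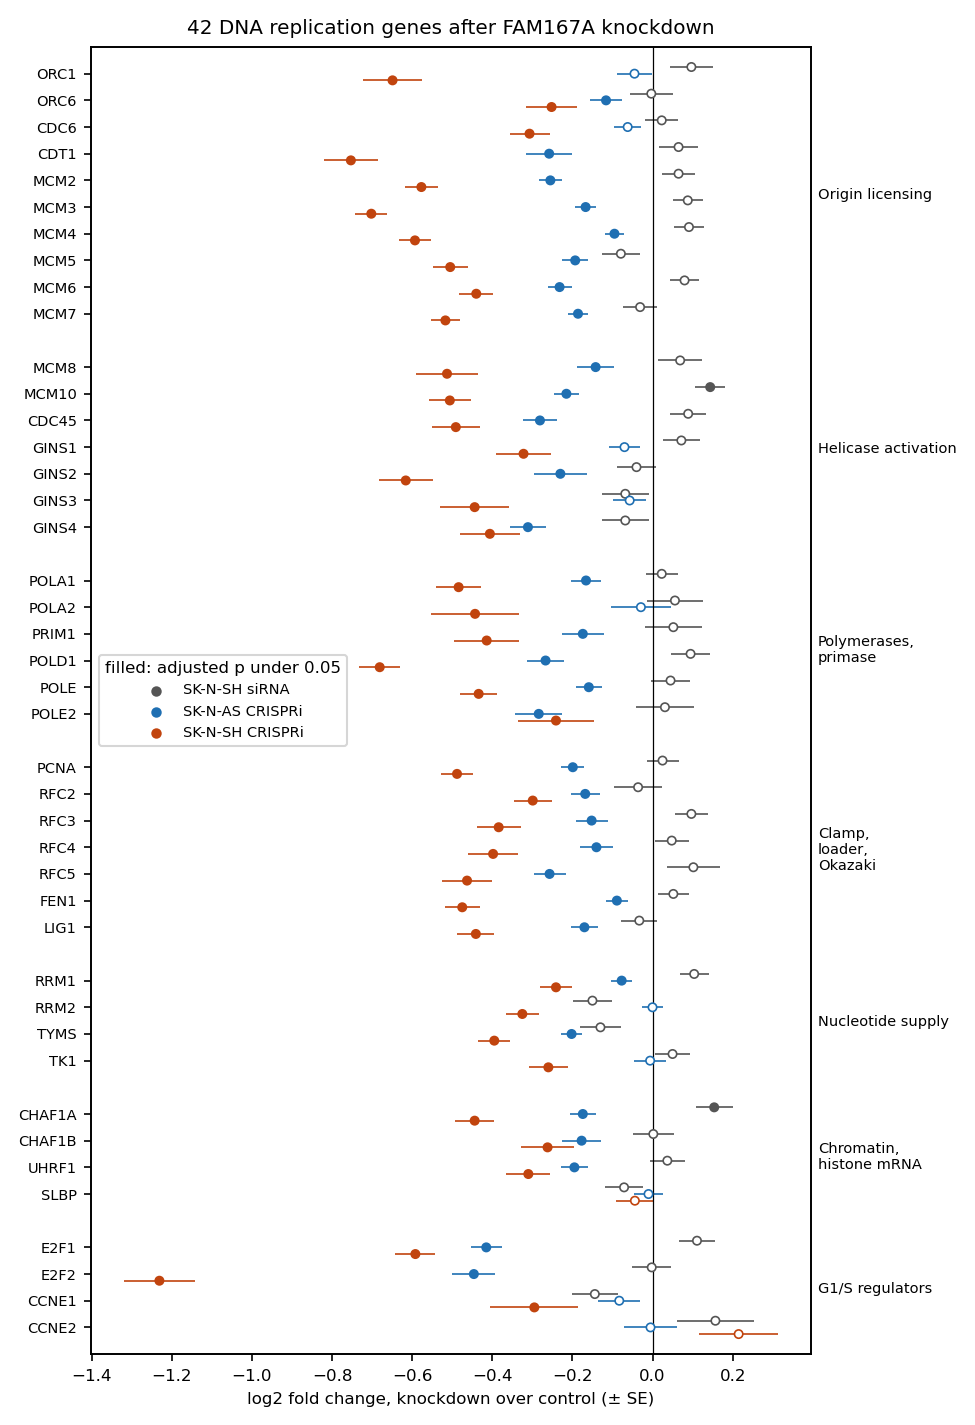
Log2 fold change (knockdown over control, with its standard error) of each of the 42 genes, grouped by role, in the 3 experiments; filled points have an adjusted p under 0.05. For 40 of the 42 genes the SK-N-SH CRISPRi point lies left of the SK-N-AS CRISPRi point, and the siRNA points lie around 0.

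**Figure D2:**
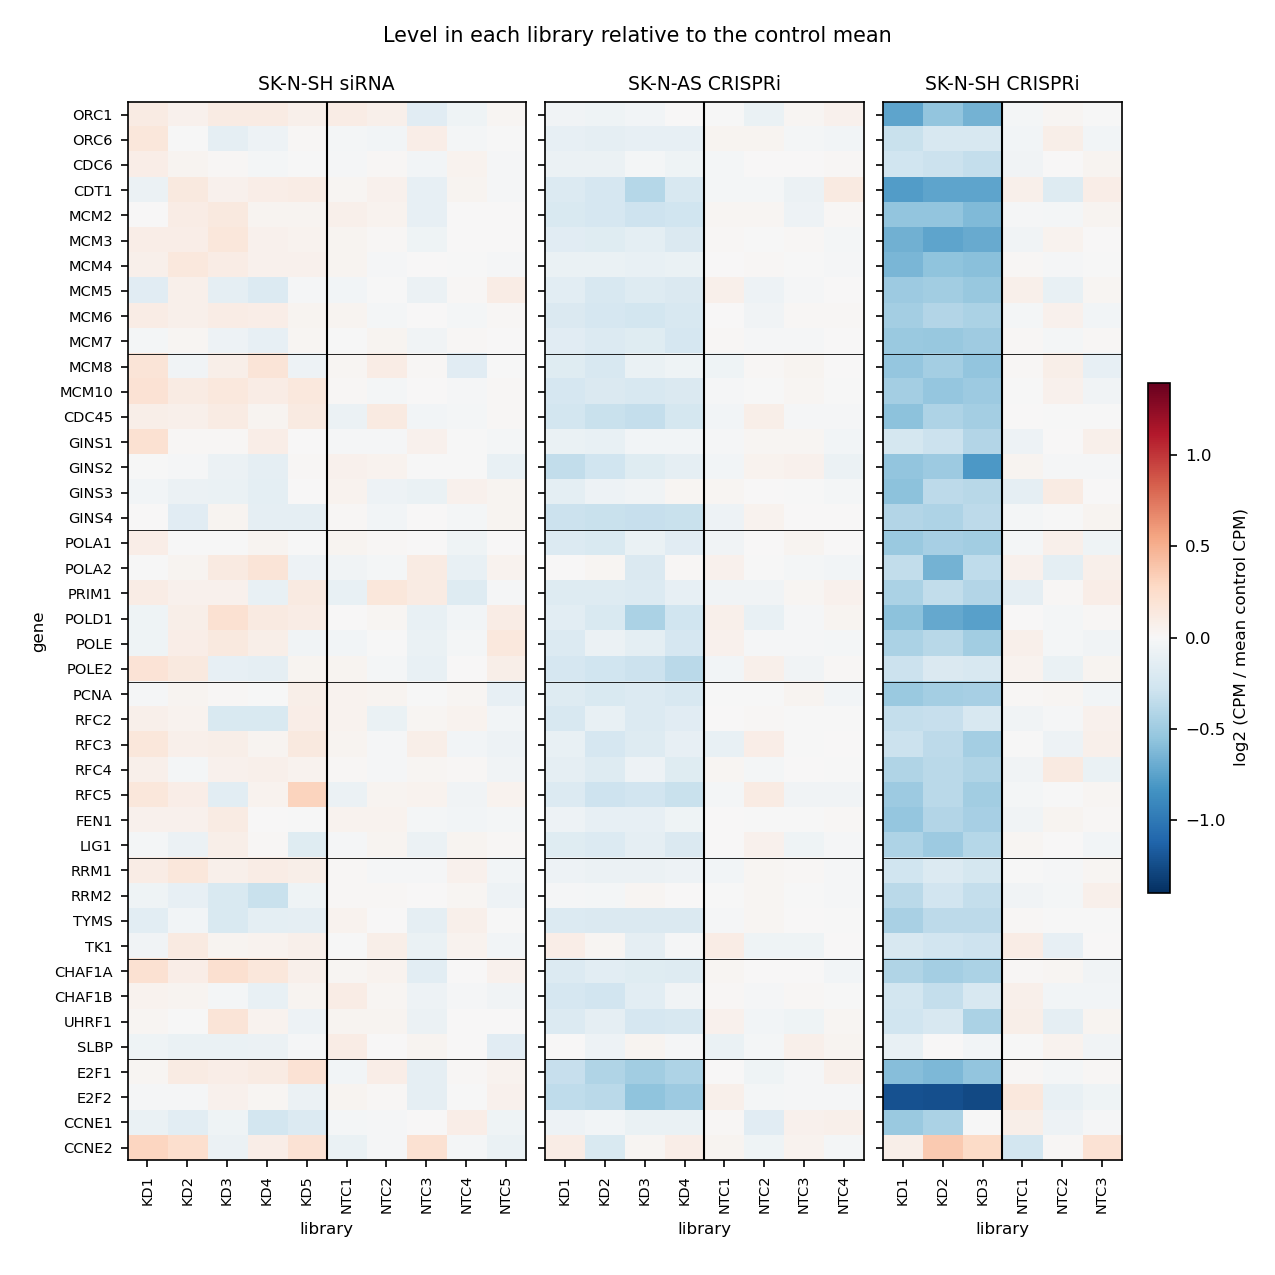
Level of each gene (rows) in each library (columns), as log2 of its CPM over the mean CPM of that experiment's controls, with knockdown (KD) libraries left of controls (NTC) and role groups divided by lines. The 3 SK-N-SH CRISPRi knockdown libraries are low for nearly all genes, SLBP and CCNE2 being the rows that are not.

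Origin licensing genes had the lowest median of any role in SK-N-SH CRISPRi. All 10 fell there, with a median log2 fold change of -0.55, and 8 of 10 fell in SK-N-AS CRISPRi, with a median of -0.18; with siRNA none was called and the median was 0.07. MCM3, a subunit of the ring, was 211, 216, 218 and 222 CPM in SK-N-AS knockdown libraries and 239, 242, 246 and 247 CPM in controls, a log2 fold change of -0.17 ± 0.03 (SE; edgeR adjusted p = 3.54e-06). The SK-N-SH CRISPRi values were 172, 176 and 180 CPM in knockdown libraries and 277, 286 and 295 CPM in controls (-0.70 ± 0.04, edgeR adjusted p = 8.22e-18). In the siRNA experiment every knockdown library was above every control, at 270, 273, 278, 279 and 291 CPM against 251, 262, 263, 264 and 268 CPM, but the difference of 0.09 ± 0.04 did not pass (edgeR adjusted p = 0.172).

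MCM4, another ring subunit, was also separated upward with siRNA, at 226, 227, 228, 234 and 241 CPM in knockdown libraries against 214, 215, 216, 218 and 222 CPM in controls. That difference was not called in edgeR (0.09 ± 0.04, edgeR adjusted p = 0.136), whereas DESeq2 called it. MCM4 had 262 to 263 CPM in the 4 SK-N-AS knockdown libraries and 278 to 283 CPM in the 4 controls, a fall of 6.4% that still separated the groups. In SK-N-SH CRISPRi the fall of MCM4 was larger, to 174, 181 and 184 CPM in knockdown libraries, against 269, 270 and 275 CPM in controls (-0.59 ± 0.04). MCM2, of the same ring, had 146, 147, 152 and 154 CPM in SK-N-AS knockdown libraries, against 170, 181, 182 and 183 CPM in controls (-0.26 ± 0.03, edgeR adjusted p = 9.37e-09). In SK-N-SH CRISPRi MCM2 had 129, 135 and 135 CPM in knockdown libraries and 194, 196 and 203 CPM in controls (-0.58 ± 0.04, edgeR adjusted p = 5.66e-15). MCM6 and MCM7 behaved alike in direction: MCM7 had 264 to 280 CPM in SK-N-AS knockdown libraries against 309 to 315 in controls, and 383 to 391 CPM in SK-N-SH CRISPRi knockdown libraries against 543 to 557 in controls. MCM6 had 95.1 to 98.6 CPM against 110 to 115 CPM in SK-N-AS, and 102 to 106 CPM against 138 to 147 CPM in SK-N-SH CRISPRi, knockdown against control. With siRNA the groups of MCM2, MCM6 and MCM7 overlapped.

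Because the 6 subunits form a ring with 1 copy of each, their levels were also compared per length, as CPM per kb of gene length. On this measure MCM7 was the highest and MCM5 the lowest in all 6 groups. The rank of MCM5 depends on the gene length, 7338 bases against 4118 for MCM6, given with the siRNA counts and used for all experiments. By CPM alone MCM5 was above MCM6 in SK-N-SH CRISPRi (116 against 104 in knockdown libraries, 165 against 141 in controls) and below it in the other groups. The ratio of MCM7 to MCM5 was 7.71 in siRNA knockdown cells and 7.46 in their controls, 4.73 in knockdown and 4.74 in control cells of SK-N-AS CRISPRi, and 5.56 in knockdown and 5.6 in control cells of SK-N-SH CRISPRi. In the CRISPRi experiments all 6 subunits fell while this 1 ratio stayed near its control value. MCM7 and MCM5 had similar log2 fold changes, -0.186 and -0.193 in SK-N-AS and -0.517 and -0.505 in SK-N-SH. Other subunits fell unequally, from -0.702 (MCM3) to -0.44 (MCM6) in SK-N-SH and from -0.255 (MCM2) to -0.095 (MCM4) in SK-N-AS. The ratio therefore does not describe the balance of the whole ring. Of the loaders, CDT1 had the deepest fall of the licensing genes in SK-N-SH CRISPRi, at 30.5 ± 0.5 CPM in knockdown libraries against 51.3 ± 5.1 CPM in controls (SD, n = 3 each; log2 fold change -0.75 ± 0.07). In SK-N-AS CDT1 was 18.1 ± 1.1 CPM in knockdown libraries and 21.7 ± 1.4 CPM in controls (SD, n = 4 each; -0.26 ± 0.06). ORC1, an ATP-binding subunit of the origin recognition complex, and CDC6 fell in SK-N-SH CRISPRi (-0.65 ± 0.07 and -0.31 ± 0.05) and were not called in SK-N-AS (-0.05 ± 0.04 and -0.06 ± 0.03). ORC6 was called in SK-N-AS at -0.12 ± 0.04, but without knockdown library 1, 2 or 4 or control library 1 its edgeR adjusted p was between 0.0507 and 0.0833.

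Of the helicase activation genes, 5 of 7 fell in SK-N-AS CRISPRi (median -0.22) and all 7 in SK-N-SH CRISPRi (median -0.49). MCM10, which helps to convert the loaded ring into a moving helicase, was 1 of the 2 genes called in opposite directions. With siRNA it was 63.6, 64.1, 65.1, 65.2 and 68 CPM in knockdown libraries and 57.8, 58.4, 59.3, 59.6 and 59.8 CPM in controls, so that the groups did not overlap (0.14 ± 0.04, edgeR adjusted p = 0.0158); among the siRNA experiment's genes 2.65% were separated upward in this way. The call on MCM10 was lost without control library 2 (edgeR adjusted p = 0.0652) or control library 4 (0.0507). In SK-N-AS CRISPRi MCM10 was 70.2, 70.8, 71.7 and 71.8 CPM in knockdown libraries and 81.7, 81.9, 82.4 and 83.9 CPM in controls (-0.22 ± 0.03, edgeR adjusted p = 1.45e-06). For SK-N-SH CRISPRi they were 47.9, 48.7 and 50 CPM in knockdown libraries and 67.3, 69 and 72.2 CPM in controls (-0.51 ± 0.05, edgeR adjusted p = 1.47e-10).

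CDC45 and the GINS complex, which has 4 subunits, both join the ring to make the active helicase. CDC45 fell by 0.28 on the log2 scale in SK-N-AS and by 0.49 in SK-N-SH CRISPRi. The GINS subunits had negative values in both lines and differed in where they were called: GINS2 (-0.23 and -0.62) and GINS4 (-0.31 and -0.41) were called in SK-N-AS and in SK-N-SH CRISPRi, while GINS1 (-0.07 and -0.32) and GINS3 (-0.06 and -0.44) were called in SK-N-SH CRISPRi and not in SK-N-AS. GINS1 was still separated in SK-N-AS, at 39.4 to 41.2 CPM in knockdown libraries against 41.3 to 43.3 CPM in controls. The fall of GINS4 in SK-N-AS was exceeded among the 42 by those of E2F2 and E2F1. MCM8, a paralogue of the ring subunits that works with MCM9 in homologous recombination, fell in both (-0.14 and -0.51); its SK-N-AS call was lost without knockdown library 1 or 2 or control library 3 (edgeR adjusted p between 0.0534 and 0.112).

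Of the polymerase and primase genes, 5 of 6 fell in SK-N-AS CRISPRi (median -0.17) and all 6 in SK-N-SH CRISPRi (median -0.44). POLD1, the catalytic subunit of the lagging-strand polymerase delta, was 58.2, 65.4, 68.1 and 71.3 CPM in SK-N-AS knockdown libraries and 73.6, 78.3, 81.4 and 83 CPM in controls (-0.27 ± 0.05). In SK-N-SH CRISPRi POLD1 was 53.9, 55.2 and 61.2 CPM in knockdown libraries and 89.6, 91.7 and 91.8 CPM in controls (-0.68 ± 0.05, edgeR adjusted p = 2.48e-14). With siRNA it ran from 82.9 to 100 CPM in knockdown libraries and from 80.4 to 92.8 CPM in controls, and the groups overlapped. POLE, the catalytic subunit of the leading-strand polymerase, fell by 0.16 in SK-N-AS and by 0.43 in SK-N-SH CRISPRi on the log2 scale, and POLA1 and PRIM1, which make the primer, fell by 0.17 and 0.17 in SK-N-AS and by 0.48 and 0.41 in SK-N-SH CRISPRi. Without control library 4 the SK-N-AS call on PRIM1 was lost (edgeR adjusted p = 0.0545). POLA2 was called in SK-N-SH CRISPRi and not in SK-N-AS. POLE2, an accessory subunit of polymerase epsilon, was, with CCNE2, an exception to the order of the lines, at -0.28 ± 0.06 in SK-N-AS and -0.24 ± 0.10 in SK-N-SH CRISPRi. Its SK-N-SH call had the highest adjusted p of the 40 in edgeR (0.0326): it was lost with DESeq2 (adjusted p = 0.107), with no filter on low counts (0.1) and, in edgeR, without knockdown library 1 or 3 or control library 1 or 3 (adjusted p between 0.0675 and 0.115).

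The sliding clamp, its loader and the Okazaki-fragment enzymes were the role in which every member fell in both CRISPRi experiments. All 7 fell in SK-N-AS (median -0.17) and in SK-N-SH (median -0.44), with log2 fold changes from -0.26 to -0.09 in SK-N-AS and from -0.49 to -0.30 in SK-N-SH. PCNA, the clamp, was 124 ± 2 CPM in SK-N-AS knockdown libraries and 142 ± 3 CPM in controls (SD, n = 4 each), and 151 ± 3 CPM in SK-N-SH CRISPRi knockdown libraries against 212 ± 5 CPM in controls (SD, n = 3 each). Among the loader subunits RFC5 fell furthest in both lines (-0.26 ± 0.04 and -0.46 ± 0.06). FEN1, the flap nuclease, and LIG1, the ligase that seals fragments, fell by 0.09 and 0.17 in SK-N-AS and by 0.48 and 0.44 in SK-N-SH CRISPRi on the log2 scale. The SK-N-AS call on FEN1 was lost without knockdown library 2 or control library 4 (edgeR adjusted p = 0.0664 and 0.0607).

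Genes of deoxynucleotide supply moved least among the roles in SK-N-AS CRISPRi, with 2 of 4 lower (median -0.04), and all 4 fell in SK-N-SH CRISPRi (median -0.29). RRM2, the regulated subunit of ribonucleotide reductase, was 149, 151, 153 and 155 CPM in SK-N-AS knockdown libraries and 150, 152, 152 and 155 CPM in controls, a log2 fold change of 0.00 ± 0.03. In SK-N-SH CRISPRi RRM2 was 178, 184 and 192 CPM in knockdown libraries and 223, 227 and 243 CPM in controls (-0.33 ± 0.04). With siRNA RRM2 was 52, 55.6, 59.6, 61.9 and 62 CPM in knockdown libraries and 61.4, 65, 65.4, 65.5 and 65.8 CPM in controls, which did not pass (-0.15 ± 0.05, edgeR adjusted p = 0.0514); it passed when knockdown library 1 (0.0273) or 5 (0.0277) or control library 5 (0.024) was left out. RRM1, the large subunit, was 128, 129, 131, 131 and 136 CPM in siRNA knockdown libraries and 119, 120, 120, 123 and 127 CPM in controls, separated but not called (0.10 ± 0.04, edgeR adjusted p = 0.0793). RRM1 was 169 to 171 CPM in SK-N-AS knockdown libraries and 175 to 183 CPM in controls, a call that was lost without any of knockdown libraries 2, 3 and 4 or control libraries 2, 3 and 4 (edgeR adjusted p between 0.06 and 0.092) and with no filter on low counts (0.0704). In SK-N-SH CRISPRi RRM1 was 154, 157 and 163 CPM in knockdown libraries and 184, 185 and 190 CPM in controls.

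TYMS, which makes thymidylate, had 136, 136, 136 and 137 CPM in SK-N-AS knockdown libraries and 155, 156, 157 and 160 CPM in controls (-0.20 ± 0.03, edgeR adjusted p = 2.37e-07). In SK-N-SH CRISPRi it had 177, 188 and 188 CPM in knockdown libraries and 241, 242 and 245 CPM in controls (-0.40 ± 0.04, edgeR adjusted p = 7.04e-11). With siRNA TYMS had 23.9, 25, 25.1, 25.3 and 27 CPM in knockdown libraries and 25.4, 27.5, 27.7, 28.7 and 29 CPM in controls, overlapping and not called. Its siRNA level was thus far below its CRISPRi levels in controls of the same line name. The exons of TYMS share 39.1% of their bases with ENOSF1 on the opposite strand in the annotation used, and ENOSF1 had 91.2% as many reads as TYMS in the siRNA table, 17.7% in SK-N-AS CRISPRi and 9.29% in SK-N-SH CRISPRi. No source used here gives the strand setting of the counting, and the part of this overlap in the TYMS level was not tested. In all, 14 members overlap exons of a gene on the opposite strand, CCNE2 by 37% of its bases with INTS8. TK1, the thymidine salvage kinase, fell in SK-N-SH CRISPRi (101 ± 2 CPM in knockdown libraries against 122 ± 9 CPM in controls, SD, n = 3 each) and not in SK-N-AS (107 ± 7 and 107 ± 6 CPM, SD, n = 4 each).

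Of the chromatin genes, 3 of 4 fell in each CRISPRi experiment (median -0.18 in SK-N-AS and -0.29 in SK-N-SH). CHAF1A, the large subunit of the CAF-1 complex that places histones H3 and H4 on new DNA, was the other gene called in opposite directions. With siRNA CHAF1A was 69.2, 70.2, 73.6, 76.5 and 76.7 CPM in knockdown libraries and 59.6, 66, 66.9, 68.3 and 68.5 CPM in controls (0.15 ± 0.05, edgeR adjusted p = 0.0345). The groups did not overlap, but the lowest control, library 3, lay far below the others, and the call was lost without knockdown library 1, 3 or 4 or control library 1, 3 or 4 (edgeR adjusted p between 0.0607 and 0.125) and without knockdown libraries 3 and 4 together (0.157). In SK-N-AS CRISPRi CHAF1A was 74.1, 74.6, 75.1 and 76.1 CPM in knockdown libraries and 82.1, 84.8, 85 and 86.5 CPM in controls (-0.17 ± 0.03, edgeR adjusted p = 4.5e-05). In SK-N-SH CRISPRi it was 57.1, 58.6 and 59.3 CPM in knockdown libraries and 77.1, 80.7 and 80.8 CPM in controls (-0.44 ± 0.05, edgeR adjusted p = 7.53e-10). CHAF1B, its partner, and UHRF1, which brings the maintenance methyltransferase to newly copied DNA, fell in both lines. SLBP, which binds the stem-loop of replication-dependent histone mRNAs, was called in none of the 3 experiments: its log2 fold change was -0.07 ± 0.05 with siRNA, -0.01 ± 0.04 in SK-N-AS CRISPRi and -0.04 ± 0.05 in SK-N-SH CRISPRi.

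Of the 4 G1/S regulators, 2 fell in SK-N-AS CRISPRi (median -0.25) and 3 in SK-N-SH CRISPRi (median -0.44). E2F2, an activating E2F factor, was 16.4, 17.1, 18.7 and 19 CPM in SK-N-AS knockdown libraries and 23.8, 24, 24 and 25.5 CPM in controls (-0.45 ± 0.05, edgeR adjusted p = 3.06e-08). The SK-N-SH CRISPRi values were 11.4, 11.7 and 11.8 CPM in knockdown libraries and 25.5, 26.4 and 30.4 CPM in controls (-1.23 ± 0.09, edgeR adjusted p = 6e-15), the lowest log2 fold change of the 42. With siRNA E2F2 ran from 27.5 to 30.4 CPM in knockdown libraries and from 26.7 to 30.3 CPM in controls, a log2 fold change of 0.00 ± 0.05. E2F1, the founding activator, was 46.6, 48.1, 48.6 and 52.1 CPM in SK-N-AS knockdown libraries and 62.3, 64.1, 65.5 and 68.4 CPM in controls (-0.42 ± 0.04, edgeR adjusted p = 1.1e-10). In SK-N-SH CRISPRi E2F1 was 50.7, 52 and 53.8 CPM in knockdown libraries and 77.1, 79.3 and 79.5 CPM in controls (-0.59 ± 0.05, edgeR adjusted p = 7.94e-13). With siRNA E2F1 was 64.4 to 72.6 CPM in knockdown libraries and 58 to 67.3 CPM in controls, overlapping.

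The E-type cyclins activate CDK2 at the start of S phase. CCNE1 was 19.2 to 19.9 CPM in SK-N-AS knockdown libraries and 18.4 to 21.6 CPM in controls, and was not called. The SK-N-SH CRISPRi values of CCNE1 were 9.29, 9.79 and 13.3 CPM in knockdown libraries and 12.7, 13.2 and 14.1 CPM in controls: the groups overlapped through knockdown library 3, and the call (-0.30 ± 0.11, edgeR adjusted p = 0.0262) was lost with DESeq2 (0.0758) and, in edgeR, without knockdown library 1 or 2 or control library 1 or 3 (adjusted p between 0.0642 and 0.195). With siRNA CCNE1 was 15, 15.7, 16.2, 16.8 and 17.2 CPM in knockdown libraries and 17.1, 17.6, 17.7, 18 and 19 CPM in controls, and was not called (edgeR adjusted p = 0.126). CCNE2 was the only member with a positive log2 fold change in SK-N-SH CRISPRi, at 20.5 ± 2.0 CPM in knockdown libraries against 17.3 ± 2.8 CPM in controls (SD, n = 3 each; 0.22 ± 0.10, edgeR adjusted p = 0.0638). It passed as a rise without knockdown library 1 (0.0227) or control library 3 (0.00789). In SK-N-AS CCNE2 was 14.2 ± 1.4 CPM in knockdown libraries and 14.2 ± 0.5 CPM in controls (SD, n = 4 each).

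**Figure D3:**
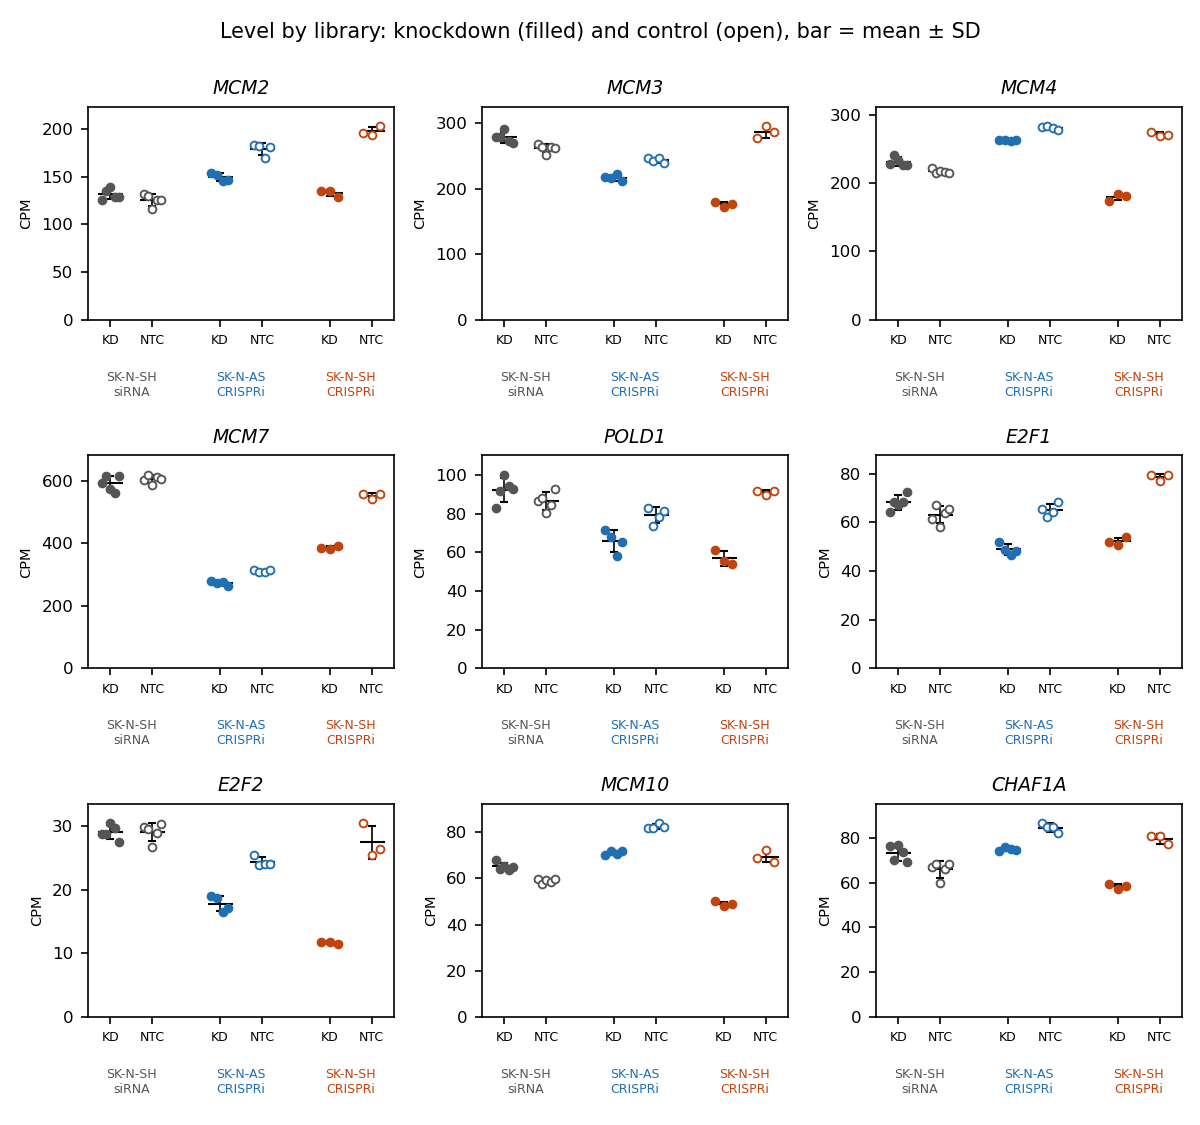
CPM of 9 of the genes in each library, with knockdown (KD, filled) left of control (NTC, open) in each experiment and bars for the mean ± SD of the group; each axis starts at 0. E2F2 in SK-N-SH CRISPRi shows the widest gap, while MCM10 and CHAF1A are higher in siRNA knockdown libraries and lower in both CRISPRi knockdown groups.

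Whether the response differed between experiments was tested directly, as an interaction with each experiment's own controls. The 2 tests share the SK-N-SH CRISPRi libraries. The siRNA response minus the SK-N-SH CRISPRi response was called higher for 37 members and lower for 0. The median difference was 0.49 on the log2 scale against 0.06 over all genes. Of 23287 genes 31.4% were called, 16.4% as higher and 15.1% as lower. The smallest adjusted p were those of MCM3 (0.80 ± 0.06, edgeR adjusted p = 7.78e-13), E2F2 (1.24 ± 0.10, edgeR adjusted p = 2.02e-12), MCM4 (0.69 ± 0.06, edgeR adjusted p = 9.67e-12) and MCM10 (0.66 ± 0.07, edgeR adjusted p = 4.93e-10). The members not called were POLE2, RRM2, SLBP, CCNE1 and CCNE2, of which RRM2 had the negative siRNA value given above (difference 0.19 ± 0.08, edgeR adjusted p = 0.0605). Leaving out single libraries gave 34 to 38 higher members, with ORC6, RFC2, GINS3 and CHAF1B losing their call without at least 1 library (edgeR adjusted p up to 0.133). FAM167A was lowered less with siRNA than with CRISPRi, as its levels above show. The part of this in the difference cannot be told apart from the method.

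The SK-N-AS response minus the SK-N-SH response to CRISPRi was called higher, that is, the fall was smaller in SK-N-AS, for 31 members and lower for 0. The median difference was 0.25 against 0.01 over all genes. Of 19862 genes 30.7% were called, 14.7% as higher and 16% as lower. E2F2 (0.77 ± 0.10, edgeR adjusted p = 5.1e-08), ORC1 (0.59 ± 0.08), MCM3 (0.52 ± 0.05, edgeR adjusted p = 8.12e-13), MCM4 (0.48 ± 0.05, edgeR adjusted p = 1.48e-12) and MCM7 (0.32 ± 0.04, edgeR adjusted p = 5.76e-08) were higher. The difference for E2F1 did not pass (0.16 ± 0.07, edgeR adjusted p = 0.0535), nor did those for GINS4 (0.08 ± 0.09), POLE2 (-0.06 ± 0.11), CHAF1B (0.07 ± 0.08) and UHRF1 (0.10 ± 0.07); a p that misses the threshold does not show that the lines respond alike. E2F1 passed without knockdown library 3 or 4 or control library 1 or 4 of SK-N-AS or knockdown library 3 of SK-N-SH (edgeR adjusted p between 0.0231 and 0.0468). Leaving out single libraries gave 25 to 32 higher members, the 25 without SK-N-SH control library 3; CDC45, RFC5, GINS1, RFC3, RFC4, POLA2 and RRM1 lost their call without at least 1 library (edgeR adjusted p up to 0.165). Across the 42 genes the 2 CRISPRi responses had Pearson's r of 0.61 and Spearman's rho of 0.46, given as a description since genes of a pathway are not independent. FAM167A was also lowered to different degrees, by 3.22 on the log2 scale in SK-N-AS and by 6.23 in SK-N-SH, and the part of this in the difference between lines cannot be told apart from the line.

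**Figure D4:**
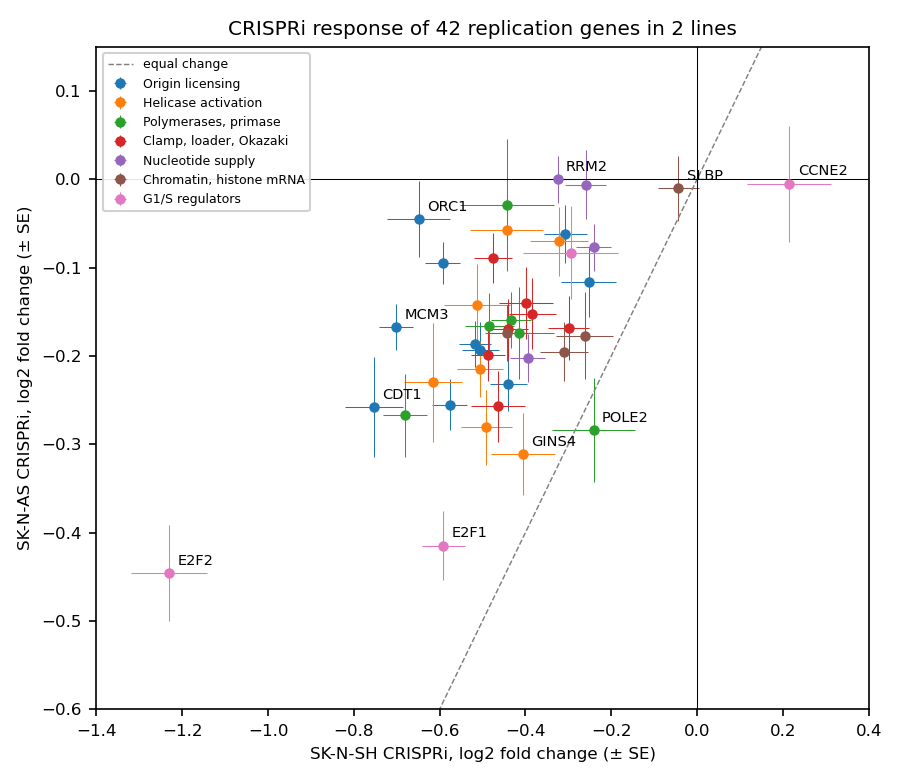
Log2 fold change of each of the 42 genes in SK-N-AS CRISPRi (vertical axis) against SK-N-SH CRISPRi (horizontal axis), with standard errors, coloured by role; the dashed line marks equal change. 40 of 42 genes lie above the dashed line, that is, with the lower value in SK-N-SH, and E2F2 and E2F1 lie lowest.

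The promoter letters were then set beside the responses. In SK-N-AS CRISPRi 24 of the 29 members with E2F-type letters fell (median -0.17), and 5 of the 9 without them (median -0.09). In SK-N-SH CRISPRi 29 of 29 with the letters fell (median -0.44), and 8 of 9 without them (median -0.33). The medians with siRNA were 0.05 in both sets. The 9 without the letters include MCM10, CDC45, POLD1 and FEN1, which fell in both CRISPRi experiments, as well as RRM2, TK1 and SLBP. Members fell both with and without the letters, and the part of the letters in the responses was not tested.

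Genes of the same pathways outside the 42 were taken from lists of other replisome, nucleotide, chromatin and E2F or RB genes. Their counts are to be read beside the shares over all genes tested. Those were 15.5% falls and 15.2% rises in SK-N-AS, 28% and 27.7% in SK-N-SH CRISPRi, and 6.98% and 2.55% with siRNA. Of 37 other replisome genes, 14 fell and 0 rose in SK-N-AS CRISPRi, 24 fell and 2 rose in SK-N-SH CRISPRi, and 0 fell and 4 rose with siRNA. RECQL4, a helicase that acts in origin firing, had 79.6 ± 3.4 CPM in SK-N-AS knockdown libraries against 95.5 ± 4.6 CPM in controls (SD, n = 4 each), and 43.0 ± 0.5 CPM in SK-N-SH CRISPRi knockdown libraries against 82.6 ± 1.2 CPM in controls (SD, n = 3 each). TIMELESS, of the fork protection complex, fell by 0.59 on the log2 scale in SK-N-SH CRISPRi. DONSON, which helps to deliver GINS, rose by 0.25 ± 0.06 with siRNA, and RFC1 (0.13 ± 0.04), ORC5 (0.16 ± 0.05) and ATAD5 (0.17 ± 0.05) rose with it. Of 15 other nucleotide genes, 8 fell and 1 rose in SK-N-AS, 10 fell and 3 rose in SK-N-SH CRISPRi, and 1 fell with siRNA. TK2, the mitochondrial thymidine kinase, rose in both CRISPRi experiments (0.22 ± 0.06 in SK-N-AS and 0.49 ± 0.07 in SK-N-SH). RRM2B, the p53-inducible reductase subunit, rose in SK-N-SH CRISPRi (0.42 ± 0.05) and fell with siRNA (-0.24 ± 0.05). Of 13 other chromatin genes, 8 fell and 1 rose in SK-N-AS, 10 fell and 1 rose in SK-N-SH CRISPRi and none was called with siRNA; CDCA7 fell in both lines (-0.21 ± 0.04 and -0.68 ± 0.05), as did TONSL (-0.24 ± 0.04 and -0.55 ± 0.06).

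The E2F and RB list was mixed. Of its 22 genes, 7 fell and 5 rose in SK-N-AS, 12 fell and 4 rose in SK-N-SH CRISPRi, and 2 fell and 2 rose with siRNA. CDKN1A, the p21 inhibitor of cyclin-dependent kinases, had 31.3 to 33.8 CPM in SK-N-AS knockdown libraries against 16.2 to 18 CPM in controls (0.93 ± 0.05, edgeR adjusted p = 5.29e-17). In SK-N-SH CRISPRi it had 594 to 621 CPM in knockdown libraries against 365 to 402 CPM in controls (0.64 ± 0.04, edgeR adjusted p = 2.18e-16). With siRNA CDKN1A fell, to 433 to 494 CPM in knockdown libraries, against 507 to 574 CPM in controls (-0.20 ± 0.05, edgeR adjusted p = 0.0055). E2F7, an E2F repressor, likewise rose in SK-N-AS (0.35 ± 0.04) and in SK-N-SH CRISPRi (0.25 ± 0.06) and fell with siRNA (-0.19 ± 0.05). MYBL2, an activator of G2 genes, fell in SK-N-AS by 0.30, and CDC25A, the phosphatase that frees CDK2, and SKP2, which marks p27 for destruction, fell in SK-N-SH CRISPRi by 0.86 and 0.52 on the log2 scale. Of 20 G2 and mitosis genes, 4 fell and 0 rose in SK-N-AS (median -0.03), 11 fell and 0 rose in SK-N-SH CRISPRi (median -0.16), and 0 fell and 5 rose with siRNA (median 0.06). Over all genes tested, 15.5% fell and 15.2% rose in SK-N-AS, 28% and 27.7% in SK-N-SH CRISPRi, and 6.98% and 2.55% with siRNA. Counts near these shares in this list or the E2F and RB list are no result about the list.

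**Figure D5:**
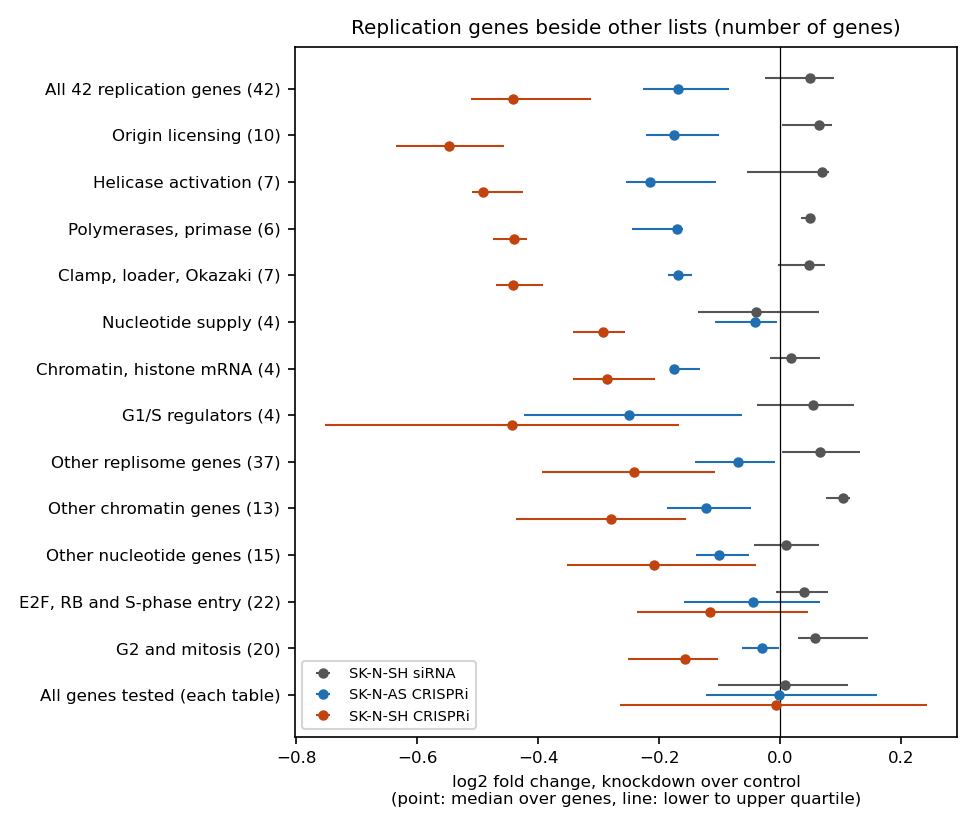
Median log2 fold change (point) with the lower and upper quartile (line) of the 42 genes, of each role, of the other pathway lists, of G2 and mitosis genes and of all genes tested, in the 3 experiments. In both CRISPRi experiments the replication lists lie left of all genes tested, whose medians lie at 0 or within 0.01 of it.

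Markers of neuroblastoma cell identity moved in the same experiments. Beside them, 15.5% of all genes tested fell and 15.2% rose in SK-N-AS, 28% and 27.7% in SK-N-SH CRISPRi, and 6.98% and 2.55% with siRNA. Of the adrenergic, neuroblast-like markers, 10 of 15 tested fell and 1 rose in SK-N-AS CRISPRi, and 13 of 14 fell and 1 rose in SK-N-SH CRISPRi; with siRNA 1 fell and 3 rose. Their summed level was 2791 to 2917 CPM in SK-N-AS knockdown libraries and 3621 to 3761 CPM in controls, and 1249 to 1326 CPM in SK-N-SH CRISPRi knockdown libraries against 3270 to 3473 CPM in controls. Of 15 mesenchymal markers, 10 rose and 3 fell in SK-N-AS and 11 rose and 2 fell in SK-N-SH CRISPRi, while 0 rose and 8 fell with siRNA. The mesenchymal sum was 12560 to 13290 CPM in SK-N-SH CRISPRi knockdown libraries and 6969 to 7948 CPM in controls, 3201 to 3283 against 2891 to 2951 CPM in SK-N-AS, and 2965 to 3371 against 3967 to 4434 CPM with siRNA, knockdown first in each. Of 7 fibroblast markers, 6 rose and 1 fell in SK-N-SH CRISPRi, with sums of 11010 to 11640 CPM in knockdown libraries and 4959 to 5758 CPM in controls. Of the 6 tested in SK-N-AS 3 rose and 3 fell, with sums of 2039 to 2101 CPM in knockdown libraries and 2077 to 2134 CPM in controls. With siRNA 3 of 7 rose and 0 fell, with sums of 2546 to 3620 CPM in knockdown libraries and 2639 to 2756 CPM in controls. The part of these shifts in the replication gene result was not tested.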

How the data were processed

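RNA was extracted with TRIzol and RNeasy columns, per the labels' protocols; CRISPRi libraries were made with Illumina Stranded mRNA Prep, while the protocol of the siRNA libraries covers stranded and non-stranded preparation. The authors deposited raw read counts per gene, 1 table per experiment. Per the submitters' processing notes the genome build was GRCh38 and the tools were featureCounts 1.5.1, STAR 2.6.1d, CASAVA, FastQC 0.11.8 and bcl2fastq 2.20.0.422 and 2.20; no source used here says which served which experiment, or the strand setting. All 24 libraries were used. Each experiment was fitted alone in R 4.3.3 with edgeR 4.0.16 (filterByExpr with minimum count 10 and minimum total 15, TMM scaling, robust quasi-likelihood fit, two-sided test, Benjamini-Hochberg adjustment over all genes tested); differences between experiments were interaction contrasts in a joint fit. CPM values are TMM-scaled, errors of fold changes are standard errors, and counting precision follows the depths given. P-values measure the spread between libraries, which may be technical. DESeq2 1.42.0, other scalings, filters, a replicate block and leaving out libraries were alternatives; leaving out siRNA knockdown libraries 3 and 4 together was chosen after seeing the data. Correlations of same-numbered libraries were checked and showed no regular pairing, which is not excluded with so few libraries per group. The main fits did not pair samples. The code was tested on simulated data. The 42 members, the lists and the tests were chosen with earlier results of these data known. Values by library are given for up to 6 members with the smallest adjusted p per experiment, members called in opposite directions, and up to 4 per test of a difference. Pathway genes named are up to 3 per list and experiment, those called with the smallest adjusted p. Others were named after their values were seen (ATAD5 with siRNA, TK2 and E2F7 in SK-N-SH CRISPRi, and the exceptions to a count). Exon overlaps are from GENCODE 29 and promoters from RefSeq.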

Additional observations from a re-analysis of the deposited data

Results flagged for a closer look

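The response was called different between experiments for most members. In SK-N-SH, 37 were called higher with siRNA than with CRISPRi, as were 16.4% of the 23287 genes tested. Under CRISPRi, 31 were called higher in SK-N-AS than in SK-N-SH, as were 14.7% of the 19862 genes tested. The differences with the smallest p were 0.8 for MCM3, 1.243 for E2F2, 0.694 for MCM4 and 0.661 for MCM10 in siRNA minus SK-N-SH CRISPRi, and 0.522 for MCM3, 0.484 for MCM4, 0.772 for E2F2 and 0.317 for MCM7 in SK-N-AS minus SK-N-SH CRISPRi, all by the interaction test.

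In 14 of 176 groups of 4 or 5 libraries examined (the 42 genes, their sum and FAM167A), a library lay far from the others by Dixon's criterion, which flags about 1 group in 20 when nothing stands apart. In the siRNA experiment RFC4 was low in knockdown library 2 (33.9 CPM). Control library 3 was high for ORC6 (32.3 CPM), GINS1 (41.9 CPM) and CCNE2 (5.14 CPM) and low for CHAF1A (59.6 CPM), and control library 5 was low for RRM2 (61.4 CPM). In SK-N-AS CRISPRi knockdown library 3 was low for MCM4 (262 CPM, within 1 CPM of the others) and POLA2 (6.94 CPM), knockdown library 4 was high for PRIM1 (18.9 CPM) and knockdown library 1 was high for TYMS (137 CPM). Control library 2 was high for CDC45 (38.7 CPM) and RFC5 (65.2 CPM), and control library 1 was high for POLE (147 CPM) and E2F2 (25.5 CPM). The SK-N-SH CRISPRi groups, with 3 libraries each, are too small for this criterion.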

How the results depend on the processing

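Of 3654 alternative fits of single members, 3521 left the call as it was, 84 lost it, 49 gained it and 0 reversed a called direction. With siRNA the number higher was 4 with DESeq2, 8 with total counts in place of TMM, 1 with the replicate block (MCM10, while CHAF1A had an edgeR adjusted p of 0.0918) and 1 without knockdown libraries 3 and 4, and 0 to 2 when single libraries were left out; the number lower was 1 with DESeq2, 1 with no filter, 1 with the filter at 1 CPM and 0 to 1 with single libraries left out. The members' siRNA median was 0.099 with total counts and 0.03 to 0.046 with single libraries left out. In SK-N-SH CRISPRi 1 member, CCNE2, was higher with no filter and 1 with the replicate block (0 to 1 with single libraries left out), 38 to 40 were lower with single libraries left out, and the median was -0.571 with total counts, -0.421 with no filter and -0.455 to -0.431 with single libraries left out. In SK-N-AS CRISPRi 28 to 31 were lower with single libraries left out, and the median was -0.16 with the filter at 1 CPM and -0.174 to -0.16 with single libraries left out. For siRNA minus SK-N-SH CRISPRi the median was 0.658 with total counts and 0.446 to 0.499 with single libraries left out (34 to 38 higher). For SK-N-AS minus SK-N-SH CRISPRi it was 0.388 with total counts, 0.282 with no filter and 0.249 to 0.269 with single libraries left out (25 to 32 higher, 0 to 1 lower). Total counts moved the median of all genes to -0.136 in SK-N-SH CRISPRi and 0.058 with siRNA. The share of calls that were rises moved to 30.4% and 55.2%, against 49.7% and 26.7% with TMM. In the differences that share was 73.1% with total counts, against 52.1% (siRNA) and 47.9% (SK-N-AS) with TMM. Relative to all genes the members' SK-N-SH CRISPRi median was -0.435 with either scaling. A scaling factor shifts all genes of a library alike, so this value is no check on the scaling. Over all genes, siRNA rises numbered 536, against 813 with DESeq2, 1315 with total counts, 322 with the replicate block and 282 to 774 with single libraries left out, and SK-N-SH CRISPRi rises 4269, against 2791 with total counts. With total counts 6080 genes were higher and 2243 lower in siRNA minus SK-N-SH CRISPRi (3811 and 3506 with TMM), and 4932 and 1813 in SK-N-AS minus SK-N-SH CRISPRi (2920 and 3178 with TMM). Same-numbered libraries correlated between -0.41 and 0.24 in their deviations. This exceeded the best other-numbered value for number 1 in SK-N-SH CRISPRi (0.12 against 0.041) and numbers 1 (0.2 against 0.18) and 3 (0.24 against 0.2) in SK-N-AS. For the remaining numbers it did not, and pairing is not excluded. With the replicate block 1 member was higher with siRNA, 40 were lower in SK-N-SH CRISPRi and 32 in SK-N-AS CRISPRi. The cause of these shifts was not tested. The SK-N-SH CRISPRi libraries are the shallowest, which limits the genes with few reads (POLA2, POLE2, CCNE1).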
